A study of Bos taurus with 9 samples.

Results

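Across the nuclear chromosomes of a bovine kidney cell line, 2758 chromatin regions held a peak in 6 or more of 8 peak lists. They were chosen by joining all peaks that shared at least 1 bp into regions and counting how many of the 8 lists had a peak in each. The joined regions numbered 393923 in all, so that 0.700% of them qualified (95% Wilson interval, 0.675 to 0.727%). Of the 2758 regions, 2234 held 6 lists, 443 held 7 and 81 held all 8. Just outside the threshold lay 8871 regions with 5 lists, and 268446 regions held a single list.

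The lists came from chromatin immunoprecipitation sequencing (ChIP-seq) of MDBK cells, an established epithelial line from bovine kidney. Untreated cells served as control, and the other cells were given 5 mM butyrate for 24 h. In each condition, 1 library was made with each of 4 antibodies, against H3K9ac, H3K27ac, RNA polymerase II (Pol II) and H3K9me3, and 1 further library of input DNA was not analysed here. Since every group was a single library, the conditions are compared without replicates. Control libraries were on sequencing lane 4 and the treated ones on lane 5, and lane and treatment cannot be told apart. The input library was on lane 5 with the treated ones.

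Acetylation of lysines 9 and 27 of histone H3 marks active promoters and enhancers, where the tails are acetylated by acetyltransferases and cleared by histone deacetylases. Butyrate inhibits those deacetylases. Pol II gathers at active promoters and along transcribed genes, whereas trimethylation of H3 lysine 9 marks heterochromatin and silenced repeats, and acetylation and trimethylation cannot sit on the same lysine of 1 histone tail. Peak positions cannot tell whether marks listed for 1 region sit on the same nucleosome or the same chromosome copy. The question put to the 2758 regions was whether they look like active hubs or like background shared by every list.

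The regions were, in their make-up, acetylated regions to which Pol II or H3K9me3 peaks were added. The lists a region held were used to choose it, so these counts describe the regions and were not tested. All 4 acetyl lists (H3K9ac and H3K27ac, control and butyrate) were held by 2513 regions (91.1%), against 7650 of the 8871 regions with 5 lists (86.2%). Only 7 regions lacked both H3K9ac lists and 6 lacked both H3K27ac lists. Pol II was listed in 1950 regions in control (70.7%, 69.0 to 72.4%) and in 2324 after butyrate (84.3%, 82.9 to 85.6%). Both Pol II lists were present in 1581 regions (57.3%), and 65 regions had neither. H3K9me3 was listed in 1173 regions in control (42.5%, 40.7 to 44.4%) and in 964 after butyrate (35.0%, 33.2 to 36.8%). Among all joined regions both differences ran the other way. Control Pol II was listed in 14.1% of them and butyrate Pol II in 7.44%, while control H3K9me3 was listed in 6.45% and butyrate H3K9me3 in 22.6%. Of the regions with 5 lists, 25.4% held control Pol II and 69.0% butyrate Pol II. Control H3K9me3 was in 11.9% of those and butyrate H3K9me3 in 10.9%.

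Although 37 different sets of 6 or more lists are possible and all 37 occurred, 3 sets made up 1681 of the regions (60.9%). The most frequent set, with 1019 regions (36.9%, 35.2 to 38.8%), held all 6 lists of the active marks and no H3K9me3. The next, with 385 regions (13.96%, 12.7 to 15.3%), had H3K9me3 in control in place of control Pol II. The third, with 277 regions (10.04%, 8.98 to 11.2%), had H3K9me3 after butyrate in place of control Pol II. H3K9me3 of at least 1 condition was thus present in 1739 regions (63.1%), and of both conditions in 398 (14.4%). Of those 1739, 387 combined all 6 active lists with H3K9me3 (14.03% of the 2758). The plot of the most frequent sets shows that 11 of the 12 held all 4 acetyl lists.

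**Figure D1:**
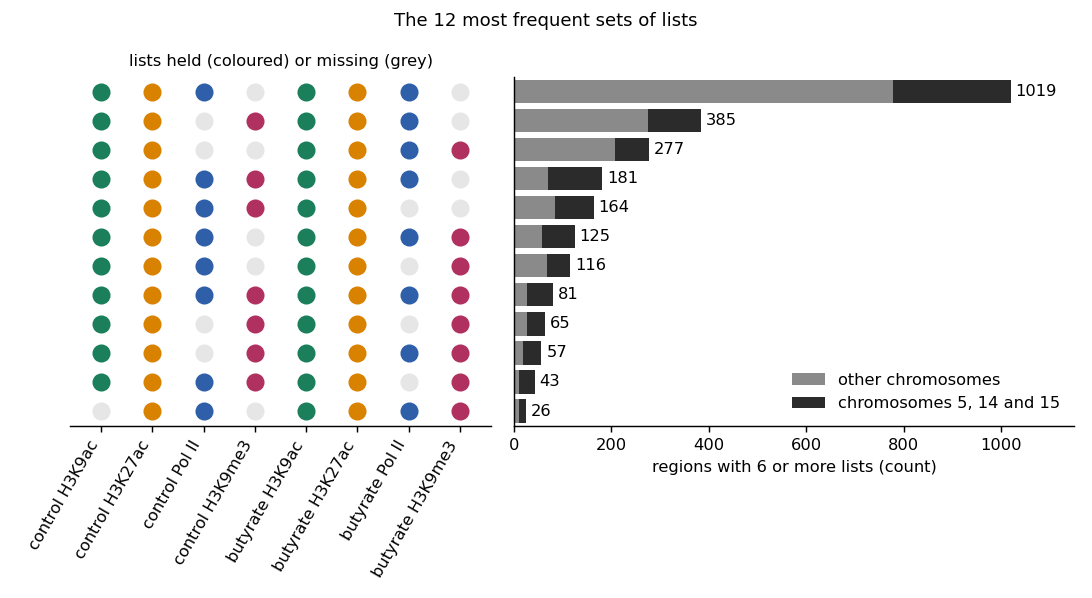
The 12 most frequent sets of lists among the regions with 6 or more lists. Each row is a set, with coloured dots for the lists it holds and grey dots for those it lacks, and the bar gives its number of regions (count axis from 0), split into chromosomes 5, 14 and 15 (black) and the other chromosomes (grey). The set of all 6 active lists, with 1019 regions, lies mostly on the other chromosomes, and the 81 regions with all 8 lists mostly on chromosomes 5, 14 and 15.

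The 81 regions with all 8 lists can be illustrated by the longest, on chromosome 14 (chr14:68846443-68851344, positions on the cattle assembly UMD3.1.1), which spanned 4902 bp and held 25 peaks. Control H3K9ac peaks covered 3399 bp of it and control H3K27ac peaks 3624 bp. After butyrate the covered length was 2852 bp for H3K9ac and 4782 bp for H3K27ac, the latter as 1 unbroken peak. Pol II peaks covered 815 bp in control and 1394 bp after butyrate. H3K9me3 covered 414 bp in control, in 2 peaks, and 252 bp after butyrate, in 1 peak. The acetyl marks thus filled most of the region, and Pol II and H3K9me3 sat in it as short islands, with no base under all 8 lists and 673 bp under 6 or more.

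In the other 4 longest regions with all 8 lists H3K9me3 again covered a small part, while the acetyl and Pol II coverage varied. On chromosome 5, chr5:78656450-78660816 spanned 4367 bp and held 24 peaks. Its Pol II coverage was 901 bp in control and 2767 bp after butyrate, the widest of the 5 and more than the 2430 bp of butyrate H3K9ac, and its H3K9me3 coverage was 199 bp in control and 261 bp after butyrate. At chr5:44785111-44788868, a region of 3758 bp, a butyrate H3K27ac peak covered the whole length and H3K9me3 covered 212 bp in control and 292 bp after butyrate. At chr3:19270242-19273731, of 3490 bp, control H3K9ac covered 1475 bp, and H3K9me3 covered 293 bp in control and 199 bp after butyrate, which is the shortest length that any list contains. At chr5:60563395-60566754, of 3360 bp, control H3K9ac covered 1433 bp, butyrate H3K27ac again covered the whole region, and H3K9me3 covered 398 bp in control and 251 bp after butyrate. In none of these 5 regions did the 8 lists share a base.

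The longest regions of the 3 most frequent sets were longer than those 5. The longest with all 6 active lists and no H3K9me3 lay at chr2:90117834-90124707 and spanned 6874 bp. Control H3K9ac covered 5506 bp of it and butyrate H3K9ac 1201 bp, whereas H3K27ac covered 6463 bp in control and 5939 bp after butyrate. Pol II covered 199 bp in control and 854 bp after butyrate. At most 4 lists met at any 1 base of this region. The longest of the second set, chr2:36724333-36729937 (5605 bp), had 245 bp of control H3K9me3, and its H3K9ac coverage was 4330 bp in control and 1435 bp after butyrate. The longest of the third set, chr6:103010810-103016748 (5939 bp), had 206 bp of butyrate H3K9me3, and its H3K9ac coverage was 4309 bp in control and 1672 bp after butyrate. In all 3 the H3K9ac coverage was at least 2-fold lower after butyrate. They were picked by length and do not stand for their sets. Of all regions with 6 or more lists that held both H3K9ac lists, 17.0% were at least 2-fold lower. Among all joined regions with both H3K9ac lists the share was 15.3%.

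The longest region of all, which also held the most peaks, was chr14:48346488-48353915, with 7428 bp, 30 peaks and 7 lists, butyrate H3K9me3 being the list it lacked. The longest on chromosome 5, chr5:117220529-117226041, spanned 5513 bp and held 6 lists. Its control H3K9ac covered 5203 bp against 511 bp after butyrate, while Pol II was listed only after butyrate, over 1184 bp. At the other end, the shortest region with 6 or more lists, chr21:15457232-15457486, had 255 bp and held 7 lists, each with 1 peak of 206 to 255 bp. It lacked control H3K27ac, and 7 lists met over the same bases, as a region this close to the minimum peak length requires. The longest region with 5 lists, chr27:15049834-15057234, had 7401 bp and lacked control Pol II and both H3K9me3 lists, so length alone did not bring a region over the threshold.

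**Figure D2:**
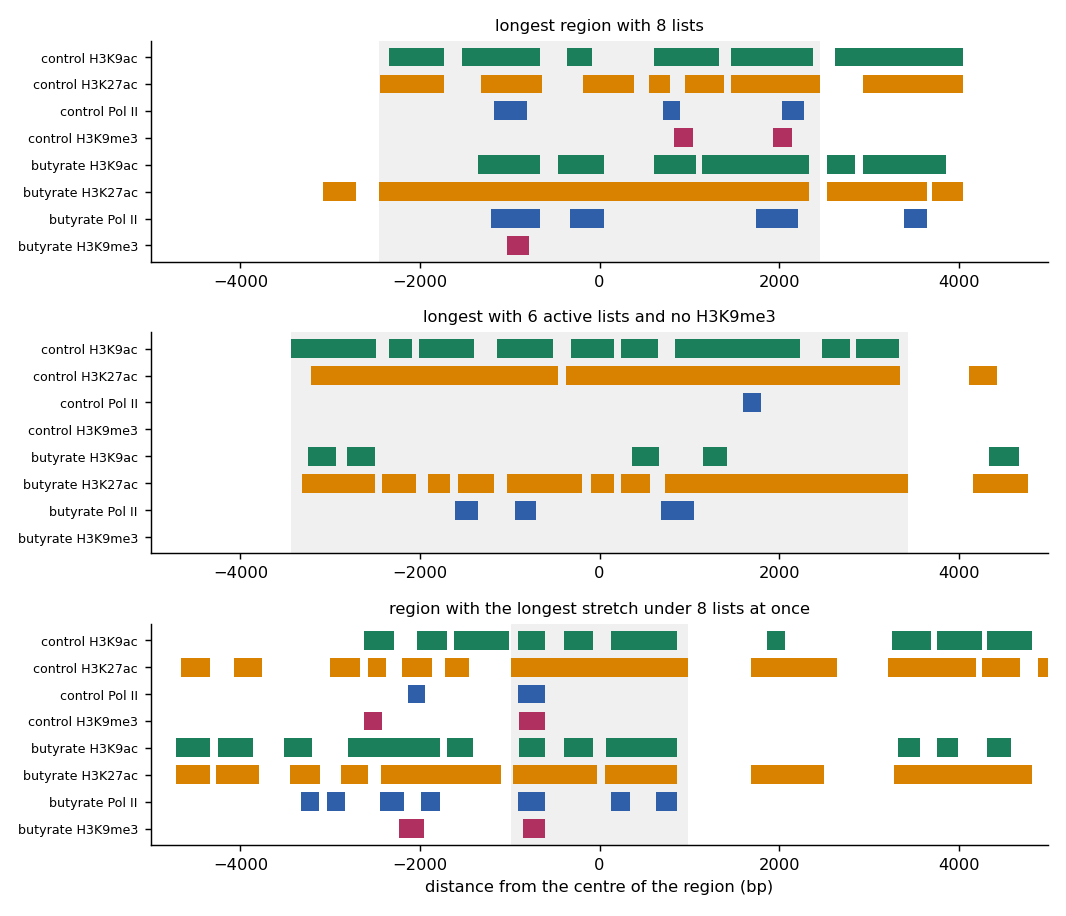
Peaks of the 8 lists around the centres of 3 regions, with distance from the centre in bp on the horizontal axis, 1 row per list and the joined region shaded. In the longest region with 8 lists (4902 bp), short Pol II and H3K9me3 peaks lie inside longer acetyl peaks, while the 6874 bp region in the middle has no H3K9me3 peak. Within the region with the longest stretch under 8 lists at once (1973 bp), only the H3K27ac peaks over that stretch are long. There the control H3K9ac peak and the Pol II peaks of both conditions run from -910 to -602 bp. The butyrate H3K9ac peak and the H3K9me3 peaks of both conditions also end at -602 bp.

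Because joining by 1 bp can chain peaks that do not meet, the number of lists over each base was also counted. In 1289 regions (46.7%, 44.9 to 48.6%) at least 6 lists covered 1 same base, over a median of 153 bp. In the others the largest number of lists at 1 base was 5 (1076 regions), 4 (343 regions) or 3 (50 regions). Only 22 regions had all 8 lists at 1 base. The longest such stretch, 248 bp, lay in chr5:48122985-48124957, a region of 1973 bp in which control H3K9me3 covered 296 bp and control Pol II 308 bp. Regions with all 6 active lists and H3K9me3 had 6 or more lists at 1 base in 76.5% of cases (72.0 to 80.4%). For those with the 6 active lists alone the share was 44.9% (41.9 to 48.0%). The former held 7 or 8 lists, any 6 of which could meet, and the latter only 6, so these shares are not comparable. Among sets of 6 lists, control or butyrate H3K9me3 in place of control Pol II gave 38.96% and 40.8%. In place of butyrate Pol II they gave 40.2% and 29.3%.

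Most Pol II and H3K9me3 peaks shared bases with acetyl peaks, which the joining in part fixes, since a peak enters a region only by meeting another peak of it. Among regions that held both kinds of peak, a control Pol II peak shared at least 1 bp with a control acetyl peak in 1812 of 1939 regions (93.5%, 92.3 to 94.5%), and a butyrate Pol II peak with a butyrate acetyl peak in 2286 of 2312 (98.9%, 98.4 to 99.2%). For H3K9me3 the share was 1070 of 1162 in control (92.1%, 90.4 to 93.5%) and 929 of 952 after butyrate (97.6%, 96.4 to 98.4%). H3K9me3 and Pol II met each other less often, in 430 of 642 regions in control (67.0%, 63.2 to 70.5%) and in 445 of 694 after butyrate (64.1%, 60.5 to 67.6%). Where H3K9me3 was listed in both conditions, the control and butyrate peaks met in 295 of 398 regions (74.1%, 69.6 to 78.2%). In regions with 5 and 4 lists, the overlap with acetyl peaks was 88.7% and 83.2% for control Pol II, 98.5% and 96.7% for butyrate Pol II, 88.3% and 85.1% for control H3K9me3, and 95.4% and 95.8% for butyrate H3K9me3.

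Coverage within the regions differed widely between antibodies. In a region that held the list, the median share of its length that was covered was 62.3% for control H3K9ac, 62.0% for control H3K27ac, 52.2% for butyrate H3K9ac and 89.4% for butyrate H3K27ac. Pol II peaks covered a median of 20.2% in control and 25.7% after butyrate, and H3K9me3 peaks 21.1% and 22.9%. The peaks of every list were longer in these regions than elsewhere. The median butyrate H3K27ac peak was 785 bp inside and 322 bp outside, and the median control H3K9ac peak was 448 bp and 295 bp. The median Pol II peak was 242 bp inside and 218 bp outside in control, and 270 bp and 233 bp after butyrate. H3K9me3 differed least, with 236 bp and 218 bp in control and 244 bp and 232 bp after butyrate. In regions with 5 lists the medians lay between these. They were 646 bp for butyrate H3K27ac and 418 bp for control H3K9ac. For Pol II they were 228 bp in control and 258 bp after butyrate, and for H3K9me3 229 bp and 235 bp. Length is tied to the rule, since a longer peak meets more peaks.

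Peaks of 199 bp, the minimum in all 8 lists, were correspondingly rarer inside. They made up 26.3% of the control Pol II peaks in the regions (24.5 to 28.2%) and 37.0% of those outside (36.6 to 37.5%). After butyrate, the Pol II shares were 16.1% (14.8 to 17.4%) and 26.4% (25.9 to 26.9%). For control H3K9me3 they were 26.5% (24.2 to 29.0%) and 36.0% (35.4 to 36.6%), and for butyrate H3K9me3 26.6% (24.0 to 29.3%) and 29.5% (29.2 to 29.8%), the closest pair. The lists have no heights, so minimum length was the only sign of a weak peak that could be counted.

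The regions took up 4.31 Mb. Their median length was 1344 bp (quartiles, 937 and 1925 bp), against 1049 bp for regions with 5 lists, 795 bp with 4, 575 bp with 3, 399 bp with 2 and 236 bp with 1. Regions of at least 2 kb made up 22.4% of them (20.9 to 24.0%) and 10.6% of the regions with 5 lists (9.94 to 11.2%). They held 9.51% of all butyrate Pol II peaks (9.19 to 9.84%), the largest share of any list, and 3.87% of the control Pol II peaks (3.71 to 4.03%). For H3K9ac the shares were 5.82% in control and 4.10% after butyrate, and for H3K27ac 4.38% and 2.08%. H3K9me3 gave 4.93% of its control peaks (4.67 to 5.20%) and 1.17% of its butyrate peaks (1.10 to 1.24%), the smallest share. The butyrate H3K9me3 list held 89478 nuclear peaks and the control H3K9me3 list 25623, the butyrate Pol II list 31225 and the control Pol II list 56225, so the shares move with the size of the lists.

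Peaks outside a region played no part in choosing it, and the flanks of 10 kb on either side were rich in acetyl peaks. Another control H3K27ac peak lay within 10 kb of 2575 regions (93.4%, 92.4 to 94.2%), against 58.4% of all joined regions. For control H3K9ac the shares were 91.9% (90.8 to 92.8%) and 51.4%. Regions with 5 lists were close behind, with 91.2% for control H3K27ac and 89.3% for control H3K9ac. Control H3K9ac peaks covered 11.4% of the flanks, 10.4-fold more than the 1.09% of the chromosomes, and control H3K27ac peaks covered 13.6%, 9.52-fold more than the 1.43% of the chromosomes. After butyrate, H3K27ac covered 22.9% of the flanks (7.52-fold) and H3K9ac 9.98% (7.18-fold). The flanks of regions with a single list had 2.13-fold for control H3K9ac and 2.12-fold for control H3K27ac. Those of regions with 4 lists had 7.65-fold and 7.14-fold, and those of regions with 5 lists 8.86-fold and 8.25-fold. Acetyl coverage of the surroundings thus rose with the number of lists, and dense acetyl flanks were not particular to regions with 6 or more. Within the 6 to 8 acetyl coverage did not keep that order. Control H3K9ac covered 11.3% of the flanks at 6 lists, 12.1% at 7 and 10.1% at 8, and control H3K27ac 13.5%, 14.2% and 11.7%.

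Pol II in the flanks followed the acetyl marks after butyrate but less so in control. Butyrate Pol II covered 2.77% of the flanks, 8.68-fold more than the chromosomes, and control Pol II covered 1.72%, or 3.31-fold more. A neighbouring Pol II peak was found beside 72.0% of regions after butyrate (70.3 to 73.6%) and beside 64.8% in control (63.0 to 66.5%), against 37.5% and 46.4% of all joined regions. For regions with 5 lists these Pol II shares were 65.6% and 56.7%. For H3K9me3, control peaks covered 0.891% of the flanks (3.79-fold) and butyrate peaks 1.67% (1.84-fold). A neighbouring H3K9me3 peak was found beside 42.7% of regions in control (40.9 to 44.6%; all joined regions, 25.5%) and beside 51.1% after butyrate (49.2 to 52.9%; all joined regions, 46.5%). For regions with 5 lists these H3K9me3 shares were 32.7% and 45.8%. Butyrate H3K9me3 was thus the list whose flank coverage differed least from that of the chromosomes.

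**Figure D3:**
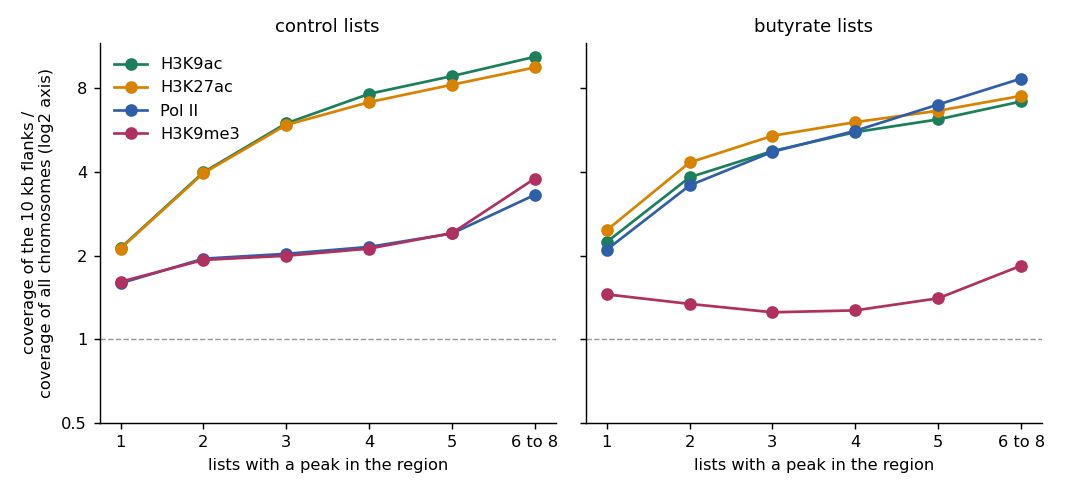
Coverage of the 10 kb flanks of a region, divided by coverage of all nuclear chromosomes (log2 axis, dashed line at 1), against the number of lists with a peak in the region, for the 4 control lists (left) and the 4 butyrate lists (right). At 6 to 8 lists the flanks reach 10.4-fold for control H3K9ac and 8.68-fold for butyrate Pol II, but 1.84-fold for butyrate H3K9me3.

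Acetyl marks were somewhat sparser around the 1739 regions with H3K9me3 than around the 1019 with the 6 active lists alone. The flanks of the 1739 regions with H3K9me3 had 10.1-fold control H3K9ac coverage and 9.06-fold control H3K27ac coverage, and those of the 1019 regions with the 6 active lists alone had 11.0-fold and 10.3-fold. Butyrate Pol II was at 8.19-fold beside the former and 9.51-fold beside the latter. Control H3K9me3 covered 1.03% of the flanks of regions with H3K9me3 (4.36-fold) and 0.661% of those without (2.81-fold). Of the former, 45.7% lay on chromosomes 5, 14 and 15, where control H3K9me3 was denser, and of the latter 23.7%. Set against coverage of the same chromosomes, control H3K9me3 was at 2.31 and 2.22-fold on these chromosomes. On the other chromosomes it was at 2.88 and 2.13-fold. The difference in acetyl marks from the 1019 was wider for the 398 regions with both H3K9me3 lists, 63.3% of which held control Pol II. Their flanks had 8.49-fold control H3K9ac and 7.31-fold control H3K27ac coverage. A neighbouring control H3K9ac peak lay beside 83.9% of these (79.99 to 87.2%) and beside 94.3% of the regions with the 6 active lists alone (92.7 to 95.6%), and butyrate H3K27ac covered 17.5% and 24.6% of the flanks. All these kinds of region had several-fold more acetyl coverage around them than the chromosomes.

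The regions were unevenly spread over the chromosomes, which the rule did not use. Chromosome 5 held 612 of them (22.2%), or 5.05 per Mb, and 2.18% of its joined regions qualified (2.01 to 2.36%). Chromosome 14 held 260 (3.07 per Mb) and chromosome 15 held 164 (1.92 per Mb). The other 26 autosomes had 0.417 to 1.22 per Mb, and the X chromosome had 12 regions, or 0.0806 per Mb. Chromosomes 5, 14 and 15, grouped after these values were seen, had 1036 of the 2758 regions (37.6%, 35.8 to 39.4%) on 10.9% of the chromosome length, and 15.5% of all joined regions. Of the 81 regions with all 8 lists, 65.4% lay on these 3 chromosomes, 37 of them on chromosome 5.

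The excess on these chromosomes was greatest for the regions with H3K9me3. On chromosome 5, 473 of the 612 regions held H3K9me3 of at least 1 condition (77.3%, 73.8 to 80.4%), on chromosome 14 it was 202 of 260 (77.7%, 72.2 to 82.3%) and on chromosome 15 it was 119 of 164 (72.6%, 65.3 to 78.8%). On the other 26 autosomes the share ranged from 38.1 to 69.4%. Of the regions with both H3K9me3 lists, 63.6% lay on chromosomes 5, 14 and 15, against 23.7% of those with the 6 active lists alone (21.2 to 26.5%). The excess of regions with 6 or more lists was also present among joined regions of like length. Among joined regions of 1 to 1.5 kb, 15.9% qualified on chromosomes 5, 14 and 15 (14.3 to 17.6%) and 4.94% elsewhere (4.54 to 5.38%). Among those of 2 to 3 kb the shares were 45.1% (39.7 to 50.6%) and 17.8% (16.0 to 19.9%). Of the qualifying regions of 1 to 1.5 kb, 74.4% held H3K9me3 on chromosomes 5, 14 and 15 (69.2 to 79.0%) and 52.4% elsewhere (48.0 to 56.7%). At 2 to 3 kb these H3K9me3 shares were 71.8% (63.9 to 78.6%) and 49.1% (43.1 to 55.0%). The cause was not tested.

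**Figure D4:**
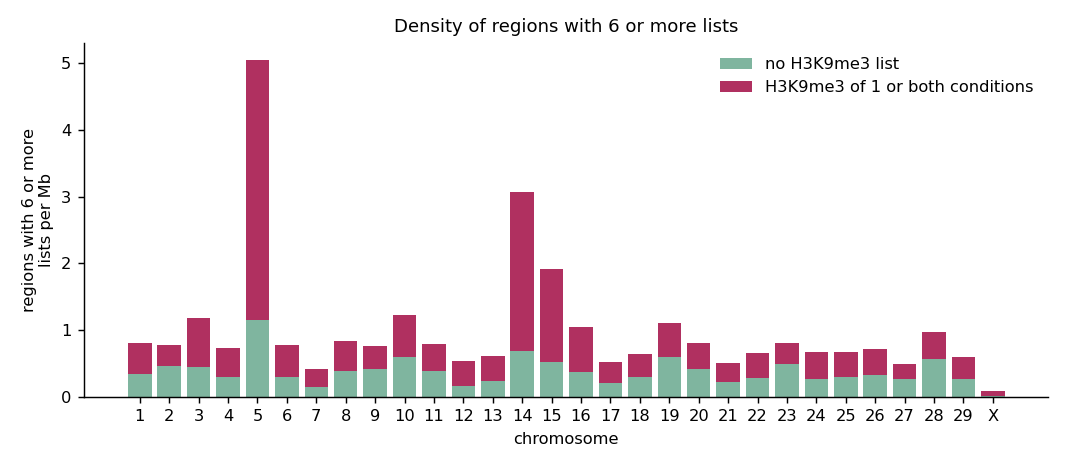
Regions with 6 or more lists per Mb of each nuclear chromosome (bars from 0), split into those with H3K9me3 of 1 or both conditions (red) and those with none (green). Chromosomes 5, 14 and 15 stand at 5.05, 3.07 and 1.92 per Mb, and every other autosome lies between 0.417 and 1.22.

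On a finer scale, the regions occurred in 1047 of 2677 windows of 1 Mb (39.1%). The richest window, chr5:38000001-39000000, held 25 of them among 441 joined regions, 22 with H3K9me3. It was followed by chr15:38000001-39000000, with 23 among 399, and by chr5:60000001-61000000, with 20 among 345. In 34 windows there were 10 or more, with 462 regions in total (16.8%), and 32 of those windows were on chromosomes 5, 14 and 15. The nearest other region with 6 or more lists was at a median of 43.0 kb (quartiles, 5.78 and 254 kb), and 848 regions (30.7%) had one within 10 kb. The regions thus included both clusters and isolated sites.

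Outside chromosomes 5, 14 and 15, 1722 regions remained and their surroundings were also rich in acetyl peaks. Control H3K9ac covered 11.3% of their flanks and 11.4% of those on chromosomes 5, 14 and 15, and control H3K27ac 14.3% and 12.3%. After butyrate the values were 9.05% and 11.5% for H3K9ac, and 22.4% and 23.8% for H3K27ac. Against the coverage of the chromosomes they lay on, the flanks of the 1722 regions had 11.0-fold control H3K9ac, 10.5-fold control H3K27ac and 8.72-fold butyrate Pol II. Control Pol II was at 2.52-fold, control H3K9me3 at 2.54-fold and butyrate H3K9me3 at 1.34-fold. On chromosomes 5, 14 and 15, set against their own coverage, the same values were 7.35, 6.49, 5.76, 2.23, 2.29 and 1.54-fold. Regions with 5 lists outside these chromosomes had 9.40-fold control H3K9ac, 8.83-fold control H3K27ac and 7.38-fold butyrate Pol II in their flanks. Much of the raised flank coverage of Pol II and H3K9me3 on the 3 chromosomes was therefore shared by the whole chromosomes, since control H3K9me3 covered 0.710% of them and 0.177% of the others, and control Pol II 1.25% and 0.432%.

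To see whether Pol II and H3K9me3 occurred together without the threshold of 6 lists, all 21926 joined regions with the 4 acetyl lists were counted, of which 2513 (11.5%) had 6 or more. Control H3K9me3 was present in 469 of the 3124 with control Pol II (15.01%, 13.8 to 16.3%) and in 1020 of the 18802 without it (5.42%, 5.11 to 5.76%). Butyrate H3K9me3 was present in 540 of the 7464 with butyrate Pol II (7.23%, 6.67 to 7.84%) and in 627 of the 14462 without it (4.34%, 4.02 to 4.68%). H3K9me3 was thus more frequent in acetylated regions with Pol II than in those without, in both conditions. Outside chromosomes 5, 14 and 15, the control shares were 8.69% (7.59 to 9.93%) and 4.32% (4.02 to 4.65%), and the butyrate shares 5.09% (4.57 to 5.67%) and 3.40% (3.099 to 3.73%). The same held between lists of different conditions. Butyrate H3K9me3 was present in 11.7% of regions with control Pol II (10.6 to 12.9%) and in 4.27% without (3.99 to 4.56%). Control H3K9me3 was present in 9.43% with butyrate Pol II (8.79 to 10.1%) and in 5.43% without (5.07 to 5.81%). Outside the same chromosomes these shares were 7.4% and 3.49%, and 6.43% and 4.07%.

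Longer regions give each list more room, and the gap between control H3K9me3 shares with and without control Pol II narrowed with length. Outside chromosomes 5, 14 and 15, acetylated regions under 1 kb held control H3K9me3 in 8.07% of cases with control Pol II (6.29 to 10.3%) and in 2.93% without (2.60 to 3.30%). At 1 to 2 kb the shares were 8.16% (6.68 to 9.93%) and 5.37% (4.84 to 5.95%). At 2 kb or more they were 11.1% (8.44 to 14.4%) and 8.87% (7.42 to 10.6%), whose intervals overlapped. For butyrate the gap did not narrow steadily. Regions under 1 kb had 4.02% (3.28 to 4.92%) and 2.80% (2.45 to 3.20%), and those of 1 to 2 kb 5.32% (4.56 to 6.19%) and 3.86% (3.33 to 4.46%). Those of 2 kb or more had 6.83% (5.42 to 8.57%) and 6.82% (5.17 to 8.95%). Butyrate Pol II was present in 24.9% of the regions under 1 kb with control Pol II (21.9 to 28.2%) and in 23.1% of those without (22.2 to 24.0%), in 44.6% (41.7 to 47.6%) and 38.5% (37.3 to 39.7%) at 1 to 2 kb, and in 61.8% (57.1 to 66.2%) and 58.2% (55.4 to 60.9%) at 2 kb or more. In control, regions with Pol II held H3K9me3 in 3.95% of cases where no acetyl list was present (3.76 to 4.14%), in 9.45% with 1 to 3 acetyl lists (8.93 to 9.99%) and in 15.01% with all 4. After butyrate the order was not the same, with 11.0% (10.4 to 11.7%), 7.02% (6.59 to 7.48%) and 7.23%.

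After butyrate the acetyl marks differed from control in opposite directions in these regions. H3K9ac peaks covered 2.59 Mb in control and 2.16 Mb after butyrate, a log2 ratio of -0.26, and H3K27ac peaks covered 2.70 Mb and 3.63 Mb, a log2 ratio of 0.43. Over all joined regions the log2 ratios were 0.35 for H3K9ac and 1.09 for H3K27ac. The rule favours regions with peaks in both conditions, so that gains and losses of whole peaks, which make up much of the difference between the full lists, are largely left out of these ratios. Regions with 5 lists gave -0.33 and 0.40 and those with 4 lists -0.22 and 0.53, close to the values with 6 or more.

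Counted region by region, H3K27ac coverage was at least 2-fold higher after butyrate in 738 of the 2614 regions that held both its lists (28.2%, 26.5 to 29.99%) and at least 2-fold lower in 50 (1.91%, 1.45 to 2.51%). Among all joined regions with both lists, 22.1% were at least 2-fold higher and 4.80% at least 2-fold lower. H3K9ac coverage was at least 2-fold higher in 302 of 2625 regions (11.5%, 10.3 to 12.8%) and at least 2-fold lower in 446 (17.0%, 15.6 to 18.5%), against 9.61% and 15.3% of all regions with both lists. The median region changed from 768 to 687 bp of H3K9ac coverage and from 752 to 1180 bp of H3K27ac coverage. The lower H3K9ac coverage was seen outside chromosomes 5, 14 and 15 (log2 ratio, -0.42) and hardly on them (-0.01), whereas H3K27ac was higher on both (0.35 and 0.59).

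Pol II covered more of these regions after butyrate, from 0.599 to 0.956 Mb (log2 ratio, 0.67), while its coverage over all joined regions was lower (-0.71). Butyrate Pol II was present without control Pol II in 743 regions and control Pol II without butyrate Pol II in 369. Where both were present, coverage was at least 2-fold higher in 352 of 1581 regions (22.3%, 20.3 to 24.4%) and at least 2-fold lower in 88 (5.57%, 4.54 to 6.81%), against 13.6% and 5.30% of all joined regions with both Pol II lists. Those 3341 regions include the 1581. The log2 ratio was 0.87 outside chromosomes 5, 14 and 15 and 0.38 on them. It was 1.78 in regions with 5 lists, where 5339 of the 8871 held the 4 acetyl lists and butyrate Pol II, so the Pol II ratio depends on which sets of lists a number of lists admits.

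H3K9me3 covered 0.340 Mb of the regions in control and 0.310 Mb after butyrate (log2 ratio, -0.13), while over all joined regions it covered 6.26 Mb and 24.2 Mb (log2 ratio, 1.95). It was listed in 775 regions in control only, in 566 after butyrate only and in 398 in both. In those 398, coverage was at least 2-fold higher after butyrate in 54 (13.6%, 10.5 to 17.3%) and at least 2-fold lower in 22 (5.53%, 3.68 to 8.23%), against 15.4% and 2.47% of all joined regions with both H3K9me3 lists. Their summed log2 ratio was 0.23, of opposite sign to that of all the regions, and joining peaks less than 1 kb apart gave 0.53, so no direction can be given for H3K9me3 in these regions. In absolute terms H3K9me3 took up 0.310 Mb of them after butyrate and H3K27ac 3.63 Mb.

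**Figure D5:**
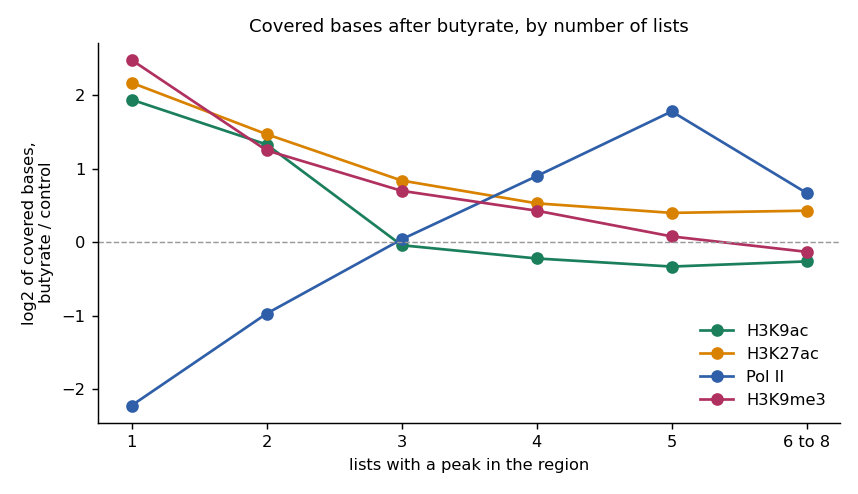
Log2 ratio of bases covered after butyrate to bases covered in control (dashed line at 0), by antibody, against the number of lists with a peak in the region, with 1 library per condition and no error estimate. From 3 lists on, H3K9ac lies below 0 and H3K27ac and Pol II above it, with H3K9ac at -0.04 and Pol II at 0.04 for 3 lists. At 6 to 8 lists H3K9ac stands at -0.26, H3K27ac at 0.43, Pol II at 0.67 and H3K9me3 at -0.13.

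Of the values that bear on the question of hubs or background, the flanks and the chromosomes were not used by the rule. The dense acetyl and butyrate Pol II peaks of the flanks were also present outside chromosomes 5, 14 and 15, and 37.6% of the regions lay on these 3 chromosomes, on which control Pol II peaks covered 1.25% of all bases against 0.432% elsewhere, and control H3K9me3 peaks 0.710% against 0.177%. All 8 lists were called against the same input library, and its part in the overlap of H3K9me3 with the other marks was not tested.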

How the data were processed

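ChIP-seq reads of 75 nt were aligned by the authors with BWA to the cattle assembly UMD3.1.1 (UMD3.1 in the submitters' processing notes, which also name Trim Galore 0.4.1), and peaks were called in each library with MACS2 against 1 input library. The deposited lists give each peak by chromosome, start and end only, without a score, height or read depth. Starts were read as counted from 0, and printed starts are 1-based. The lists held 673837 nuclear peaks in the 8 libraries. Overlapping peaks (at least 1 bp) were joined into regions, and covered bases, lists per base, peaks within 10 kb of either edge and coverage of those flanks were counted. Chromosome length was taken as the last peak end in any list. Shares have 95% Wilson intervals, which cover counting error only, since neighbouring regions are not independent. With 1 library per group no test between conditions was run. Per region, coverage was called higher or lower when it differed at least 2-fold, in regions with both lists of an antibody.

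Named regions were the 5 longest with 8 lists, the longest with the 6 active lists alone, the longest of each of the 3 most frequent sets and on each of the 2 densest chromosomes, the longest stretch under 8 lists, the most peaks, the 3 richest windows of 1 Mb, and those at the threshold. The regions, rules and lists were chosen with earlier results of these data known. No genome or gene table of this assembly was used here, so no genes or sequences are given. Joining and counting were tested on simulated data. Alternatives were a minimum length, wider joining, autosomes only, 6 lists at 1 base, lists of equal size, starts counted from 1, leaving out a list, and other distances. Counts were made in Python 3.11.15 with numpy 2.4.6, intervals with scipy 1.17.1, and plots with matplotlib 3.10.9.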

Additional observations from a re-analysis of the deposited data

Results flagged for a closer look

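The mitochondrial genome, which lies outside the nuclear chromosomes counted above, also carried peaks of every list. Its 89 peaks joined into 4 regions of 1740 to 9831 bp, all 4 of which held all 8 lists and had 6 or more lists at 1 same base. This is a signal outside the main measurement, and no read depth was at hand to set it against the nuclear regions.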

How the results depend on the processing

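The number of regions, 2758, was 2746 on autosomes and 2759 with starts counted from 1, and it moved under the other choices of peaks. It was 9 with peaks of at least 500 bp, 5767 with peaks less than 1 kb apart joined, 1289 with 6 or more lists at 1 same base, and 671 with the longest 25623 peaks of each list. Asking for 6 of the other 7 lists gave 590, 587, 1270 and 1973 without control H3K9ac, H3K27ac, Pol II and H3K9me3, and 547, 483, 911 and 2134 without the same butyrate lists. The share with all 6 active lists, 51.0%, was 66.7% with peaks of at least 500 bp, 58.5% with 6 lists at 1 same base and 53.2% with lists of equal size. The share with both H3K9me3 lists, 14.4%, was 11.1%, 16.8% and 8.05% under those settings, and 21.0% with 1 kb joining. Neighbouring control peaks within 5 kb and within 50 kb were found beside 85.6% and 98.4% of regions for H3K9ac, beside 87.2% and 98.8% for H3K27ac, beside 48.3% and 95.3% for Pol II and beside 29.5% and 81.3% for H3K9me3. With neighbours of at least 500 bp within 10 kb the shares were 59.2%, 60.9%, 3.77% and 0.870%.

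The log2 ratios kept their sign for H3K9ac, H3K27ac and Pol II under all alternatives run. With peaks of at least 500 bp H3K9ac had -0.63, H3K27ac 0.22, Pol II 1.00 and H3K9me3 -2.09, and with lists of equal size -0.54, 0.24, 0.97 and -1.41. With 6 lists at 1 same base they were -0.35 for H3K9ac and 0.25 for H3K27ac, and 1 kb joining gave 0.70 for H3K27ac. In regions with both lists of the antibody, Pol II had 0.47. For H3K9me3 the sign turned with 1 kb joining (0.53) and in regions with both of its lists (0.23); the cause was not tested.

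Alternatives chosen after seeing the data left out chromosomes 5, 14 and 15, or counted only neighbours that were in no region with 6 or more lists. Without the 3 chromosomes there were 1722 regions, 54.2% with all 6 active lists and 8.42% with both H3K9me3 lists, neighbouring control peaks beside 55.5% for Pol II and 28.8% for H3K9me3, and log2 ratios of -0.42 for H3K9ac, 0.35 for H3K27ac and 0.87 for Pol II. With neighbours outside such regions the shares were 90.1%, 92.0%, 55.2% and 33.7% in the order H3K9ac, H3K27ac, Pol II, H3K9me3. No paired analysis was possible because no group held more than 1 library. The lists give positions only, so the depth of the libraries limits every count by an amount that is unknown here.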
